A study of Mus musculus with 6 samples.

Results

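The genes followed here make ribosomes, and they were measured in RTF1-deficient and control mouse Th17 cells. They were picked by symbol from the count table as nucleolar factors that transcribe, modify and process ribosomal RNA and assemble the subunits, and all 40 of 40 were found among the 31017 genes of the table. Th17 cells are helper T cells that secrete interleukin 17, and here they were differentiated in culture. RTF1 is a nuclear factor that travels with RNA polymerase II and promotes ubiquitination of histone H2B. The control group held 3 libraries of genotype WT and the KO group 3 libraries of RTF1-deficient cells. The labels do not give the strain, sex or age of the mice, how Rtf1 was deleted, or whether the replicates came from separate animals, so p-values measure only the spread between these libraries.

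Ribosome production starts in the nucleolus, where RNA polymerase I copies the ribosomal DNA into one long precursor. Small nucleolar ribonucleoproteins (snoRNPs) of the box C/D class methylate this precursor and those of the box H/ACA class convert uridines to pseudouridine. Other factors cut and fold it, so that the small and large subunits mature separately before export. T cells enlarge their nucleoli when activated, and MYC is a known activator of many of these genes.

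In the KO libraries 20 of the 40 genes were lower and 0 were higher (edgeR's quasi-likelihood test, Benjamini-Hochberg adjusted p under 0.05 over all 14268 genes tested). Of all genes tested, 22.9% were called lower and 23.2% higher, 46.1% in all. Among the 11650 of them with a control mean at or above that of the lowest of the 40, 27.1% were lower and 21.4% higher. That cut was set by Wdr74, which lay far below the rest of the 40, so it matches level only loosely. It used the control mean alone and so leaves out genes high only in KO. The count of 20 ran from 8 without KO replicate 2 to 32 without control replicate 3. In these fits 15.1% and 25.8% of all genes tested were called lower. All 40 passed the filter on low counts. The median log2 fold change of the 40 was −0.59, a level of 66.5% of control, against 0.013 for all genes tested. The largest decreases were those of Npm1, Rrp12 and Ncl, which were also the 3 genes of the 40 called and lowered at least 2-fold, a class that held 11% of all genes tested. The fold changes of single genes ran from −1.15 for Npm1 to 0.12 for Bop1, and 37 of 40 were below 0. Of all 14268 genes tested, 7039 were below 0. An unadjusted p under 0.05 was found for 28 of the 40, and for 7724 of all 14268 genes tested.

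**Figure D1:**
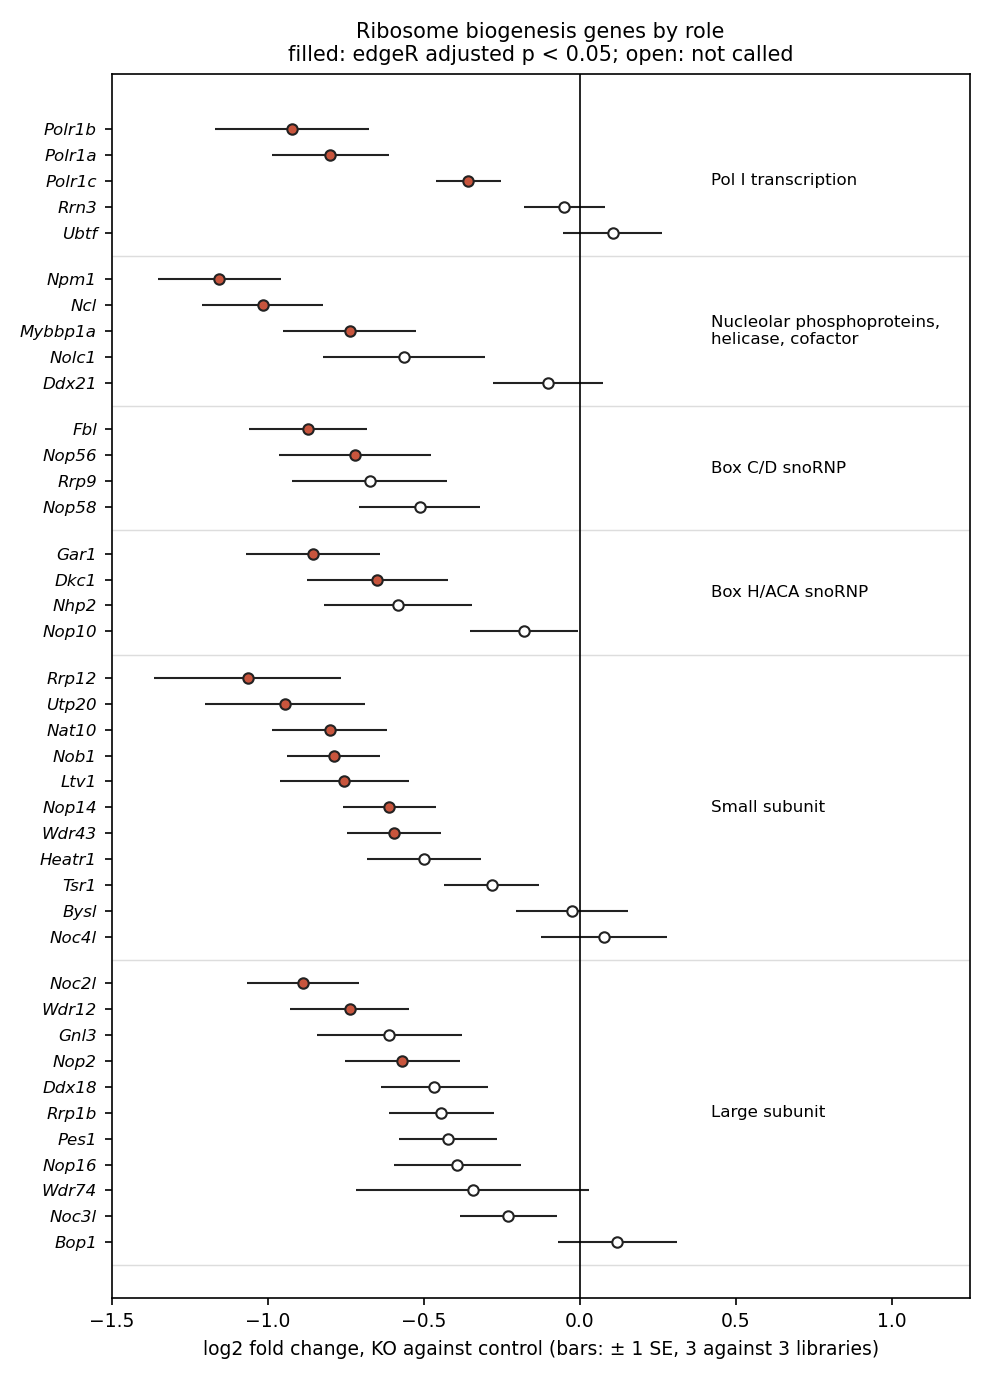
Log2 fold change of KO against control for each of the 40 genes, ordered by role, with bars of 1 standard error from 3 against 3 libraries. Filled points are the 20 genes called lower, and open points the 20 not called; only Ubtf, Noc4l and Bop1 lie above 0.

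Total counts ran from 16489813 to 51271226 per library. Rtf1 itself held 94.0, 91.2 and 88.3 CPM (the count relative to the TMM-scaled library total) in the control libraries, in the order of their replicate numbers, and 45.3, 30.4 and 26.2 CPM in the KO libraries; all values per library below keep this order. It was lower in each KO library (log2 fold change −1.42, SE 0.191, edgeR adjusted p = 0.000755). Replicate 3 of each group carried 11376 and 5147 counts of Y-linked genes, against 1 to 3 in the other libraries. Without these 2 libraries 28 of the 40 genes were called lower, 19 of them among the 20, and 0 higher. There 21.7% of all genes tested were called lower and 22.7% higher. Counts of 7 T helper cell markers summed to 1886 to 2134 CPM in control and 1906 to 2370 in KO, with Cd3e, Cd3g and Thy1 called higher and Cd4 and Lck lower. The 5 Th17 markers, 4 of them called lower, summed to 1271 to 1876 and 507 to 1145 CPM (scaled here to the total count). The 6 myeloid markers summed to 2.44 to 5.03 CPM in control and 17.4 to 29.1 in KO, with Cd68 and Csf1r called higher. Lyz2 had 0, 2 and 4 counts in control and 46, 11 and 8 in KO, while Itgam and Adgre1 had at most 3 and 5 counts in any library; the part of these markers in the results was not tested. Of the 4 markers of CD8 T cells and natural killer cells, Ncr1 and Klrb1c had no count in any library. Cd8b1 had 109, 348 and 417 counts in control and 150, 184 and 170 in KO. Cd8a had 4, 27 and 23 counts in control and 23, 18 and 19 in KO, and neither gene was called. The 4 markers summed to 6.85 to 10.1 CPM in control and 5.63 to 9.79 in KO. Mitochondrial genes took 0.978% ± 0.292 of control counts and 1.30% ± 0.173 of KO counts (SD, n = 3; exact permutation p = 0.3). In bulk RNA, fewer cells of a type and less RNA per cell cannot be told apart.

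The 40 genes together supplied 1.002%, 1.04% and 0.772% of all counts in the control libraries and 0.718%, 0.571% and 0.491% in the KO libraries. Every KO library was below every control library, and the means were 0.938% ± 0.146 for control and 0.593% ± 0.115 for KO (SD, n = 3). The KO mean was 0.632 of the control mean. The exact two-sided permutation test gave p = 0.1, the smallest value that 3 libraries against 3 allow. Npm1 and Ncl made up 46.3%, 46.7% and 52.0% of these counts in control and 39.1%, 38.7% and 35.001% in KO. The share of the other 38 genes was 0.488% ± 0.102 for control and 0.369% ± 0.0613 for KO (SD, n = 3). Here control replicate 3, at 0.370%, was below KO replicate 1, at 0.437%. The KO share was 0.478 of the control share for Npm1, 0.525 for Ncl and 0.756 for the other 38 together.

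Of the 5 genes of polymerase I transcription among the 40, the enzyme subunits Polr1a, Polr1b and Polr1c were lower, and Rrn3 and Ubtf were not called. This does not extend to all subunits and initiation factors. In the second list described below the subunits Polr1d, Polr1e, Twistnb and Znrd1 were not called. The subunit Cd3eap was lower there, without overlap (log2 fold change −0.87, edgeR adjusted p = 0.0115). Of the other factors in that class Taf1b was lower, Taf1c was higher, and Taf1a, Taf1d and Ttf1 were not called. Polr1b, the second largest subunit, held 80.4, 77.3 and 51.4 CPM in control and 50.6, 31.9 and 27.7 CPM in KO. The groups did not overlap, but control replicate 3 and KO replicate 1 nearly met (log2 fold change −0.92, SE 0.248, edgeR adjusted p = 0.0152). Polr1a, the largest subunit, held 126, 110.05 and 101 CPM in control and 85.1, 53.2 and 55.3 in KO. All KO libraries were lower (−0.80, SE 0.188, adjusted p = 0.00853). Polr1c, a subunit shared by polymerases I and III, was lower by less, from 109 ± 7.85 to 85.1 ± 2.97 CPM (mean ± SD over n = 3; −0.36, adjusted p = 0.0216). Rrn3, which carries polymerase I to the promoter, had means of 131 ± 19.7 and 127 ± 4.75 CPM (adjusted p = 0.780). Ubtf, which binds the ribosomal DNA promoter, had means of 166 ± 34.7 and 178 ± 5.44 CPM (adjusted p = 0.609). The 3 called of 5 in this class compare with 22.9% of all genes tested. Without KO replicate 2, 1 was called, against 15.1% of all genes tested called lower. The sign of Rrn3 changed when only library size was used for scaling (0.040) and when control replicate 2 was left out, and that of Ubtf without control replicate 3 (−0.12).

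A pair of abundant nucleolar phosphoproteins showed the widest separation between the groups. Npm1 encodes nucleophosmin, a histone and ribosome chaperone. It held 2581, 2981 and 2463 CPM in control and 1480.5, 1240.2 and 883 CPM in KO. The lowest control library lay far above the highest KO library (log2 fold change −1.15, SE 0.197, edgeR adjusted p = 0.00209). Ncl encodes nucleolin, which binds nascent ribosomal RNA. It held 2069.7, 2161 and 1690.2 CPM in control and 1249.8, 876 and 803 CPM in KO, again without overlap (−1.02, SE 0.193, adjusted p = 0.00327). Per kilobase of annotated exon, Npm1 had 1004 CPM in control and 451 in KO, and Ncl 194 and 95.8, the highest levels of the 40 in both groups.

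With Mybbp1a, 3 of the 5 genes of this class were called lower, against 22.9% of all genes tested. Mybbp1a, a nucleolar cofactor of polymerase I and ribosomal RNA processing, was lower, from 424 ± 107 to 254 ± 53.5 CPM (mean ± SD over n = 3; log2 fold change −0.74, edgeR adjusted p = 0.0210). Nolc1, a snoRNP chaperone, had means of 207 ± 69.1 and 139.9 ± 32.0 CPM (−0.56, adjusted p = 0.105). Ddx21, an RNA helicase that links polymerase I and II transcription, had means of 435 ± 94.3 and 405 ± 48.0 CPM (−0.10, adjusted p = 0.667). Ddx21 stood at 83.9 CPM per kilobase in control, behind only Npm1, Ncl and Nhp2 among the 40, without being called. Its sign changed without control replicate 2 (0.032).

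The promoter of Ncl is shown because it had the largest called decrease with an entry in the RefSeq promoter table (GRCm38.p6), which holds no entry for Npm1, Rrp12, Fbl and Bop1. The 250 bases before its start lie at chr1:86359456-86359705 on the minus strand, have a GC content of 69.6%, and carry 3 copies of the GC-box GGGCGG, read on the opposite strand, in capitals.
Ncl: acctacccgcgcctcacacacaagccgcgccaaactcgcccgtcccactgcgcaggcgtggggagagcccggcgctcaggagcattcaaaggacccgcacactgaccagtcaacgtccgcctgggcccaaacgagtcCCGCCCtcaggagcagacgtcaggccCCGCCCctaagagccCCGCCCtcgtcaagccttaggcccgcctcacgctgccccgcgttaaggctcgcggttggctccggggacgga
The GC-box was found on either strand in the windows of 27 of the 36 genes with an entry (75%), and in those of 66.2% of the tested genes with one, counting 250 bases before to 50 after each start. The ETS-like motif CCGGAAG was found in 12 of 36 (33.3%) and in 19.8% of tested genes, and the 2 motifs were searched separately, with overlap allowed.

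The E-box CACGTG, which reads the same on both strands and is the sequence that MYC with MAX is known to bind, was found in 8 of the 36 genes (22.2%) and in 11.6% of tested genes. In Utp20 and Mybbp1a it lay near the end of the window. The others are shown with their surroundings in 30 bases, 5′ to 3′ on the gene's strand, with the E-box in capitals, because they show where it stands relative to the start.
Nop2: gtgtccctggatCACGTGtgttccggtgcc
Pes1: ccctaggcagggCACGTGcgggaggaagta
Rrn3: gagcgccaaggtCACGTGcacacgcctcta
Rrn3: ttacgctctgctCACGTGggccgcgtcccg
Ltv1: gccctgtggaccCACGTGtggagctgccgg
Tsr1: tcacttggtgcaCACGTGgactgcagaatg
Wdr43: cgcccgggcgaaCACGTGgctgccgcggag
They lie at chr6:125131811-125131840 (plus strand), chr11:3963965-3963994 (plus), chr16:13780472-13780501 and chr16:13780639-13780668 (plus), chr10:13193092-13193121 (minus), chr11:74898092-74898121 (plus) and chr17:71616220-71616249 (plus), in GRCm38.p6. The first base of the E-box stood at positions 3, 18, 25 and 29 after the start in Pes1, Wdr43, Tsr1 and Ltv1, at 38 and 41 in Utp20 and Mybbp1a, and before the start, at −60, in Nop2, and at −215 and −48 in Rrn3. Of the 8 genes with an E-box 5 were called lower, with a median log2 fold change of −0.58. Of the 28 without one 12 were called lower, with a median of −0.57. Among all genes tested 22.9% were called lower. Whether an E-box goes with the change was not tested. Rrn3, the gene with a pair of E-boxes, was not called.

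Myc itself held 281, 315 and 339 CPM in control and 192, 171 and 199 CPM in KO. All KO libraries were lower (log2 fold change −0.73, SE 0.123, edgeR adjusted p = 0.00193). Control replicate 3 was the highest library for Myc and the lowest control library for most of the 40 genes. Whether Myc has a part in the levels of the 40 genes was not tested.

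In the box C/D snoRNP, the methylation complex, 2 of 4 genes were called lower, against 22.9% of all genes tested. The count was 4 with the replicate block, with no filter, with DESeq2, and without control replicate 3 or KO replicate 1. In these fits 26.4%, 15.7%, 20.1%, 25.8% and 20.8% of all genes tested were called lower. The count was 1 when only library size was used for scaling and without each of the other 4 libraries in turn. There the share of all genes tested ran from 15.1% to 20.6%. Fbl encodes fibrillarin, the methyltransferase. It held 154, 180.4 and 121 CPM in control and 102, 79.95 and 66.9 CPM in KO. The groups did not overlap (log2 fold change −0.87, SE 0.190, edgeR adjusted p = 0.00604). Nop56, a core scaffold protein, held 389, 418 and 215 CPM in control and 248.7, 194 and 179 in KO. Control replicate 3 lay below KO replicate 1 (−0.72, SE 0.244, adjusted p = 0.0383). Its partner Nop58 (−0.51, adjusted p = 0.0571) and the U3 snoRNP protein Rrp9 (−0.67, adjusted p = 0.0519) were not called.

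In the box H/ACA snoRNP, the pseudouridine complex, 2 of 4 genes were called lower, against 22.9% of all genes tested. The count was 0 without KO replicate 2, where 15.1% of all genes tested were called lower. It was 1 without control replicate 1, control replicate 2 or KO replicate 3, and when only library size was used for scaling. There the shares of all genes tested were 19.1%, 20.6%, 16.9% and 19.6%. The count was 3, with Nhp2, with no filter, with DESeq2 and with the replicate block, against shares of 15.7%, 20.1% and 26.4%. Nhp2 was also called without control replicate 3, KO replicate 1 or replicate 3 of both groups. Gar1, a core protein, held 82.8, 79.3 and 54.3 CPM in control and 51.7, 34.3 and 33.5 CPM in KO. The groups did not overlap (log2 fold change −0.85, SE 0.215, edgeR adjusted p = 0.0115). Dkc1 encodes dyskerin, the pseudouridine synthase. It held 155, 179.6 and 111 CPM in control and 124, 88.1 and 72.3 CPM in KO. KO replicate 1 lay above control replicate 3 (−0.65, SE 0.226, adjusted p = 0.0428). The other core proteins, Nhp2 (−0.58, adjusted p = 0.0711) and Nop10 (−0.18, adjusted p = 0.422), were not called.

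Of the small subunit factors 7 of 11 genes were called lower, against 22.9% of all genes tested, with a median log2 fold change of −0.61. The count was 3 without KO replicate 2, 4 without control replicate 2 or KO replicate 3, and 9 without control replicate 3. In these fits 15.1%, 20.6%, 16.9% and 25.8% of all genes tested were called lower. Rrp12, needed for late processing and export, held 145, 126 and 78.2 CPM in control and 81.8, 40.3 and 44.7 CPM in KO. KO replicate 1 overlapped control replicate 3 (−1.06, SE 0.300, edgeR adjusted p = 0.0185). Utp20, a large scaffold of the small subunit processome, held 146, 137 and 97.5 CPM in control and 94.8, 51.5 and 50.9 in KO. The groups did not overlap, though only narrowly (−0.94, SE 0.256, adjusted p = 0.0158). Nob1, the nuclease that makes the mature end of 18S RNA, was lower without overlap, from 65.2 ± 7.01 to 37.7 ± 6.02 CPM (mean ± SD over n = 3; −0.79, adjusted p = 0.00318).

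The acetyltransferase Nat10 (log2 fold change −0.80, edgeR adjusted p = 0.00781), the assembly factors Ltv1 (−0.75, adjusted p = 0.0164) and Nop14 (−0.61, adjusted p = 0.0102) and the processome protein Wdr43 (−0.60, adjusted p = 0.0114) were also lower, all without overlap. Heatr1, a processome scaffold, missed the threshold (−0.50, adjusted p = 0.0507). The late factor Tsr1 (−0.28, adjusted p = 0.156), Bysl (−0.0245, adjusted p = 0.921) and Noc4l (0.077, adjusted p = 0.775), which works with Nop14, were not called. Bysl and Noc4l each changed sign under some alternatives, Bysl when only library size was used for scaling (0.064) and Noc4l without control replicate 3 (−0.19).

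Of the large subunit factors 3 of 11 genes (27.3%) were called lower, near the 22.9% of all genes tested, with a median log2 fold change of −0.44. The count was 7 with the replicate block or with no filter, where the small subunit class had 8, and 5 with DESeq2. With these settings 26.4%, 15.7% and 20.1% of all genes tested were called lower. The count was 9 without control replicate 3, as in the small subunit class, 6 without KO replicate 1 and 1 without KO replicate 2. There the shares of all genes tested were 25.8%, 20.8% and 15.1%. Whether the classes differ was not tested. Noc2l, which helps move early large subunits, held 165, 183 and 127 CPM in control and 105, 78.2 and 73.7 CPM in KO. The groups did not overlap (−0.89, SE 0.179, edgeR adjusted p = 0.00435). Wdr12 held 69.1, 73.4 and 53.2 CPM in control and 49.4, 36.7 and 31.3 CPM in KO. All KO libraries were lower (−0.74, SE 0.191, adjusted p = 0.0131). Wdr12 acts in the PeBoW complex with Pes1 and Bop1, which were not called. Pes1 had a log2 fold change of −0.42 (adjusted p = 0.0552, and 0.0179 with the replicate block), and Bop1 of 0.12 (adjusted p = 0.633), with means of 93.6 ± 25.3 and 102 ± 8.93 CPM (SD, n = 3). Bop1 changed sign without control replicate 3 (−0.14).

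The third large subunit gene that was lower was Nop2, a methyltransferase of 28S RNA (log2 fold change −0.57, edgeR adjusted p = 0.0331). The helicase Ddx18 (−0.47, adjusted p = 0.0510), Rrp1b (−0.44, adjusted p = 0.0577), the GTP-binding protein Gnl3 (−0.61, adjusted p = 0.0579), Nop16 (−0.39, adjusted p = 0.143) and Noc3l (−0.23, adjusted p = 0.256) were not called. Rrp1b was the gene of the 20 not called whose groups did not overlap. Wdr74 was nearly silent in the table, with a mean of 1.22 ± 0.411 CPM for control and 0.962 ± 0.0876 for KO (SD, n = 3; −0.34, adjusted p = 0.478), the lowest level of the 40.

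The 40 genes moved together from library to library within each group. Control replicate 3 was the lowest control library for 39 of 40 genes, and for 35.2% of all genes tested. KO replicate 1 was the highest KO library for 39 of 40, and for 36.4% of all genes tested. At the median gene the level was 106%, 116% and 76.7% of the control mean in the control libraries, and 81.9%, 60.1% and 59.0% in the KO libraries. The highest KO library and the lowest control library thus stood close together. KO replicate 1 was also the KO library with the most Rtf1 transcript, 45.3 CPM, and the highest sum of Th17 markers; whether these go together was not tested.

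**Figure D2:**
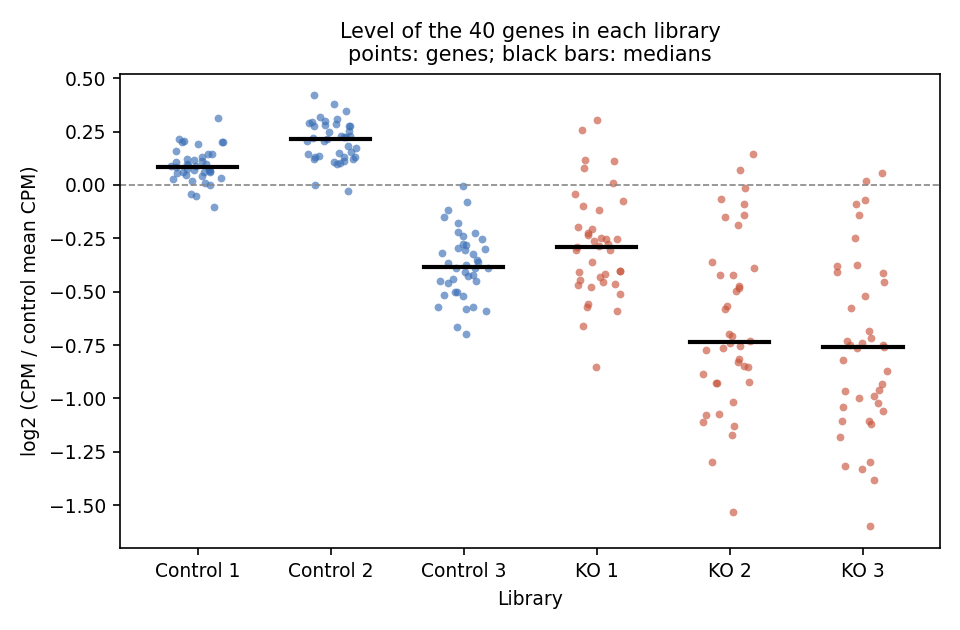
Level of each of the 40 genes in each library, as log2 of its CPM over the control mean, with medians as black bars. Control replicate 3, at 76.7% of the control mean, and KO replicate 1, at 81.9%, approach each other, while KO replicates 2 and 3 lie at 60.1% and 59.0%.

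Because of this spread only 16 of the 40 genes had every KO library below every control library, and 0 had every KO library above. Of all genes tested, 28% lay wholly below and 29.9% wholly above. With control replicate 3 set aside, the KO libraries lay below control replicates 1 and 2 for 36 of 40 genes, against 34.3% of all genes tested. In libraries of equal replicate number, KO was lower for 36, 40 and 33 of the 40 genes for numbers 1, 2 and 3, with median log2 differences of −0.40, −0.93 and −0.39. In 33 genes KO was lower for all 3 numbers. These counts were not taken over all genes tested, so no background share stands beside them. Deviations from the group means across the 40 genes alone had correlations of 0.565, 0.0783 and −0.110 for numbers 1, 2 and 3, and reached 0.372 for control replicate 3 with KO replicate 2, so among these genes equal numbers did not go together throughout.

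The number of calls depended on which library was kept. Leaving out control replicate 3 gave 32 calls and leaving out KO replicate 1 gave 27, the 20 genes included each time. In these fits 25.8% and 20.8% of all genes tested were called lower. The number fell to 8 without KO replicate 2, 12 without KO replicate 3, 12 without control replicate 2 and 15 without control replicate 1. All of them were among the 20. Here the shares of all genes tested called lower were 15.1%, 16.9%, 20.6% and 19.1%. The 8 genes called in each of these 6 fits were Polr1a, Ncl, Npm1, Fbl, Nop14, Nat10, Nob1 and Noc2l. Gar1, Wdr43 and Wdr12 lost the call without KO replicate 2. Polr1b lost it without control replicate 2 or KO replicate 2, and Polr1c without KO replicate 2 or 3. Utp20 and Ltv1 lost it without control replicate 2, KO replicate 2 or KO replicate 3. Mybbp1a, Nop56, Dkc1, Rrp12 and Nop2 lost it in each fit other than those without control replicate 3 or KO replicate 1. Blocking on replicate number, which treats libraries of equal number as pairs, gave 29 calls, namely the 20 and Nolc1, Nop58, Rrp9, Nhp2, Heatr1, Pes1, Gnl3, Rrp1b and Ddx18. The adjusted p of these 9 under the block ran from 0.0027 to 0.0256, and over all 13 alternatives from 0.0027 to 0.286. With the block 26.4% of all genes tested were called lower.

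**Figure D3:**
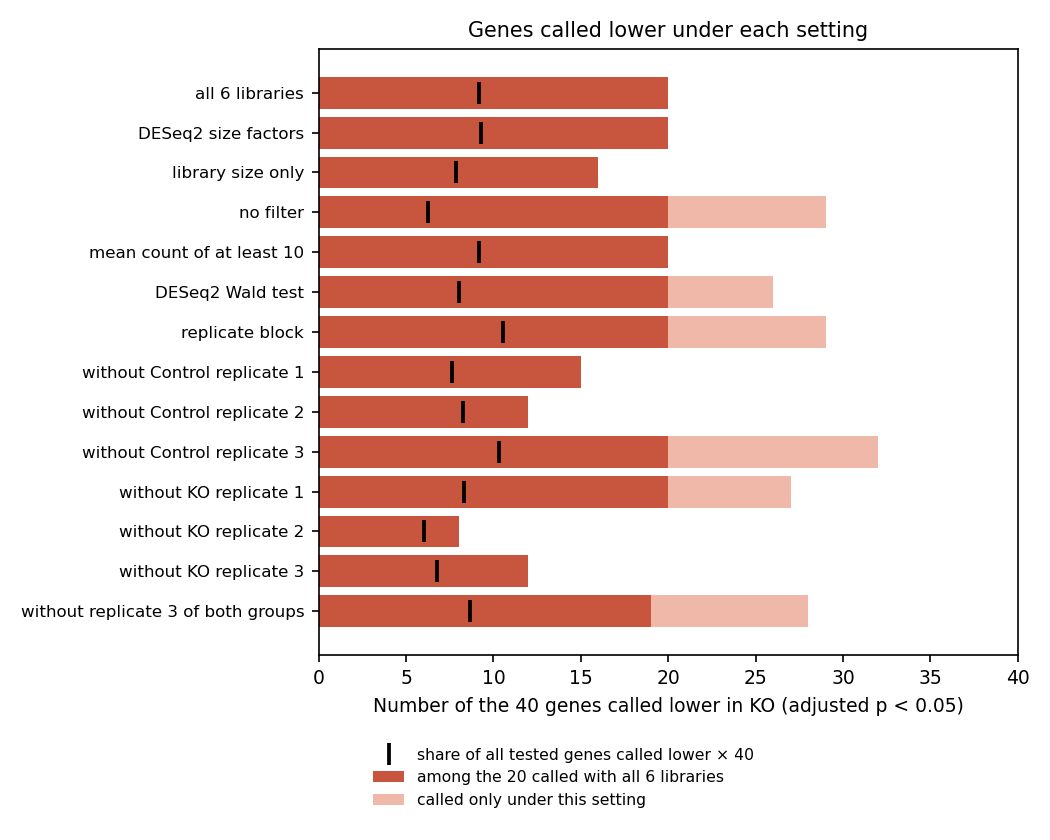
Number of the 40 genes called lower under each setting (bars), split into genes among the 20 called with all 6 libraries (dark) and others (pale). Black ticks mark the number that the share of all tested genes called lower would give among 40; the bars run from 8 without KO replicate 2 to 32 without control replicate 3.

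A second list of 137 ribosome biogenesis genes, none of them among the 40, was examined for comparison, and 135 passed the filter. Of these 39 (28.9%) were called lower and 6 (4.4%) higher, against 22.9% and 23.2% of all genes tested, with a median log2 fold change of −0.27. The number lower was 14, 18, 20 and 21 without KO replicate 2, KO replicate 3, control replicate 2 and control replicate 1, and 75 without control replicate 3. In these fits 15.1%, 16.9%, 20.6%, 19.1% and 25.8% of all genes tested were called lower. The number higher was 3 without control replicate 1 or KO replicate 2, against 15.7% and 16% of all genes tested. Of the 9 genes for snoRNP assembly 7 were lower, with a median of −0.78. Ruvbl2, an ATPase that helps build box C/D snoRNPs, held 166, 197 and 125 CPM in control and 79.7, 61.3 and 50.2 CPM in KO. The groups were far apart (log2 fold change −1.35, SE 0.209, edgeR adjusted p = 0.00138). The exosome, RNase MRP and exonuclease genes had 8 of 20 lower and 0 higher. Among them Rpp40, a subunit of RNase P and MRP, held 7.60, 7.33 and 4.61 CPM in control and 3.76, 1.79 and 1.32 CPM in KO. It was lower in every KO library (−1.497, SE 0.406, adjusted p = 0.0158), though not called without KO replicate 2 (adjusted p = 0.0666, and 0.00034 to 0.0666 over all alternatives).

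Other small and large subunit factors were called lower in 7 of 47 (14.9%) and 15 of 49 (30.6%) genes, and higher in 2 and 3. Of all genes tested, 22.9% were called lower and 23.2% higher. The median log2 fold changes were −0.16 for these small subunit factors and −0.31 for the large subunit factors. Riok1, a kinase of late small subunit maturation, held 64.99, 68.9 and 84.2 CPM in control and 96.2, 128 and 130.2 CPM in KO. It rose without overlap (log2 fold change 0.70, SE 0.154, edgeR adjusted p = 0.00634). Of the other polymerase I genes 2 of 10 (20%) were lower and 1 (10%) higher, with a median log2 fold change of −0.056. The gene that rose was Taf1c, a subunit of the promoter selectivity factor SL1, at 12.2, 10.1 and 10.5 CPM in control and 17.9, 18.9 and 18.4 CPM in KO (log2 fold change 0.75, SE 0.147, adjusted p = 0.00365). In the cumulative plot the median of the second list lies between those of the 40 genes and of all genes tested; the difference was not tested.

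**Figure D4:**
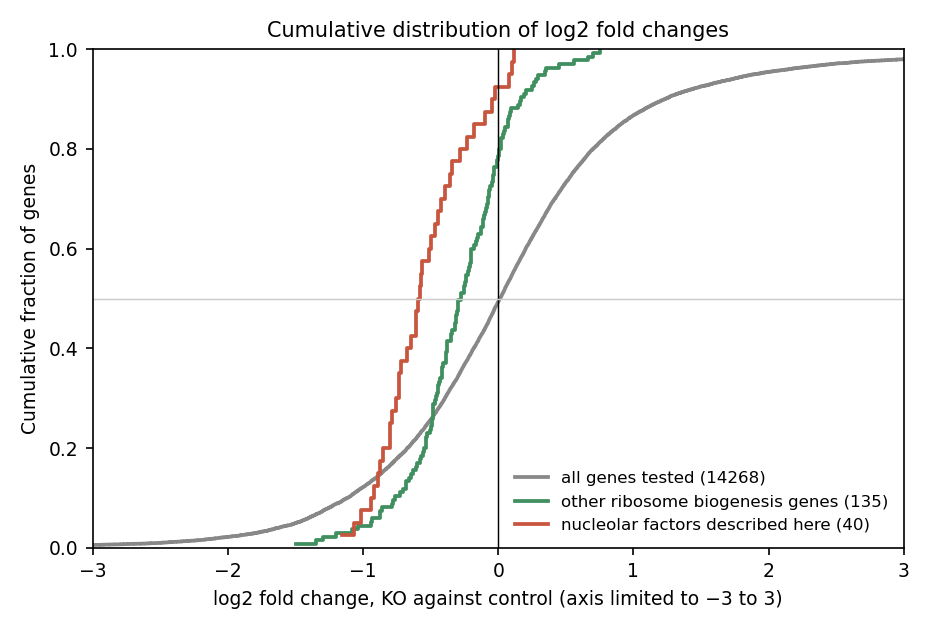
Cumulative fraction of genes by log2 fold change of KO against control, for the 40 genes, 135 other ribosome biogenesis genes and all 14268 genes tested. The curves cross 0.5 at −0.59, −0.27 and 0.013.

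Some of these values rest on reads that could belong to more than one gene. In the GENCODE M21 transcripts, 5 of the 40 genes share more than 10% of their 50-base stretches with other genes, namely Ddx18 (55.9%), Npm1 (24.3%), Pes1 (20.4%), Fbl (19.0%) and Nop56 (18.6%), so their counts are uncertain. Exons of Tsr1 and Noc2l overlap another gene over 32.3% and 20.9% of their length, on the opposite strand, and the strand setting of the counting is not given in the sources used here.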

How the data were processed

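RNA sequencing of 6 libraries was used. Per the labels' protocols, total RNA was purified with a column kit and libraries were made and sequenced at a core facility. The deposited values are raw counts per gene symbol, 1 column per sample. Per the submitters' processing notes, STAR, featureCounts, DESeq2 and build mm10 were used, without versions; annotation and strand setting are not given in the sources used here. There were 0 columns without a sample and 0 rows without a gene name.

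From these counts, edgeR 4.0.16 (R 4.3.3) tested KO against control over all genes: TMM factors, filterByExpr (14268 genes, 99.9% of counts), quasi-likelihood test, Benjamini-Hochberg adjustment, calls at adjusted p under 0.05. The SE is the absolute log2 fold change over the square root of F. CPM values use TMM factors, except the sums of marker genes, which use total counts. Gene lengths and shared stretches are from GENCODE M21 (GRCm38, the same assembly as mm10); promoters are from RefSeq GRCm38.p6. Alternatives were DESeq2 1.42.0, other scalings and filters, a replicate block, and leaving out libraries.

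The members, the second list and the roles were chosen with earlier results of these data known. Libraries are named in full for Rtf1, Myc, the 2 members with the largest change in each role, any member called against the direction of its role (0 were), and the second list's 2 largest called changes in each direction. Equal replicate numbers gave correlations of deviations from group means, across genes, of 0.270, 0.130 and 0.379. Each was over 0.1, so the numbers were read as pairing libraries in the replicate block, but the main fit used no pairing. What the numbers stand for is not given in the labels. Of the unequal pairs, control 2 with KO 1 reached 0.204, above the 0.130 of equal number 2. Across the 40 genes alone the equal numbers gave 0.565, 0.0783 and −0.110, so the pairing is uncertain for them.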

Additional observations from a re-analysis of the deposited data

How the results depend on the processing

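With 3 libraries a group, 1 library decided many calls. The count of the 40 genes called lower ran from 8 to 32 when 1 library was left out, and that of the second list from 14 to 75 lower and from 3 to 5 higher; the cause was not tested beyond the loss of a sample. The share of all genes tested called lower ran from 15.1% to 25.8% in these fits, and that called higher from 15.7% to 23.3%. The median log2 fold change of the 40 ran from −0.83 to −0.47 over these fits and that of the second list from −0.47 to −0.20. The count of the 40 called higher was 0 in each of the 13 alternatives. DESeq2 size factors and a mean count of at least 10 kept the 20 calls. Library size as the only scaling gave 16, without Polr1c, Nop56, Dkc1 and Nop2, and called 19.6% of all genes tested lower. No filter, the DESeq2 test and the replicate block gave 29, 26 and 29, the 20 included, and the replicate block moved the second list to 57 lower and 7 higher, against 39 and 6. With these settings 15.7%, 20.1% and 26.4% of all genes tested were called lower. The alternative without replicate 3 of both groups was chosen after seeing the data; it gave 28 for the 40 genes, without Polr1c. The difference in the share of counts, KO minus control, ran from −0.43 to −0.294 percentage points when 1 library was left out, against −0.345 with all libraries. Genes that were not called changed sign under some alternatives, none of them called there either. With library size as the only scaling Rrn3 was at 0.040 and Bysl at 0.064. With 1 library left out the log2 fold change ran from −0.22 to 0.039 for Rrn3, −0.32 to 0.032 for Ddx21, −0.27 to 0.089 for Bysl, −0.12 to 0.21 for Ubtf, −0.19 to 0.23 for Noc4l and −0.14 to 0.29 for Bop1. Without replicate 3 of both groups Ubtf, Noc4l and Bop1 were at −0.036, −0.052 and −0.035. The cause was not tested. Depth limits Wdr74 most, at 1.22 CPM in control.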
